A study of Homo sapiens with 6 samples.

Results

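The regions described here are places in the human genome where MYT1L CUT&RUN peaks recurred between libraries and lay at an end of a single protein-coding gene. Peaks of the 4 MYT1L lists were merged where they shared at least 1 bp, and a merged region was kept when at least 3 of the 4 libraries had a peak in it and no IgG peak overlapped it. A kept region belonged to the set when it lay within 1000 bp of the start or end coordinate of exactly 1 protein-coding gene of the RefSeq table. The members were thus chosen by the presence of peaks, and the height of those peaks is given as a description, with no test. The rule found 5549 regions, out of 11091 kept regions and 49028 merged regions in all, of which they are 11.3%. Of the other kept regions, 1176 lay at ends of 2 or more genes and 4366 at no protein-coding gene end.

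All 6 libraries came from H1, an established human embryonic stem cell line labelled wild type, at day 30. Their cell type label reads embryonic stem cells, but the design text describes cortical interneurons grown from them. An antibody against MYT1L was used for 4 of the libraries, and IgG, the negative control, for the other 2. In CUT&RUN an antibody tethers a nuclease to chromatin, and the short DNA fragments it releases are sequenced. Every library came from the same line, and no label says whether the replicates were separate differentiations, so the spread between libraries may be technical. Peak lists hold no RNA, so the cell type could not be checked against expressed markers.

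MYT1L is a zinc-finger protein of the MYT1 family that is made almost only in neurons. Its zinc fingers recognise a short core motif, AAGTT, and it recruits the SIN3 histone deacetylase complex. It is known for holding genes of other lineages and of the Notch pathway silent while neurons mature, and loss of a copy of the gene causes a neurodevelopmental disorder. A gene's promoter, the stretch just before its start site, is where RNA polymerase II is loaded, and many human promoters lie in CpG islands, which are rich in G, C and the CG dinucleotide.

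The sequences below show the kinds of promoter at which the 4 libraries agreed. Each is the 250 bases before the annotated start, from the RefSeq promoter table of build GRCh38.p14, read 5′ to 3′ on the gene's strand. In the first 5, the peak summits of all 4 libraries lay in the window that these bases share with the first 50 bases of the gene. In those 5, capitals mark every match on either strand to 1 of the 11 short motifs searched, which are spelled out with the promoter results. The CDK8 promoter, at chr13:26253879-26254128 on the plus strand, belongs to the kinase of the Mediator complex and is shown for its E-box and GC box.
CDK8: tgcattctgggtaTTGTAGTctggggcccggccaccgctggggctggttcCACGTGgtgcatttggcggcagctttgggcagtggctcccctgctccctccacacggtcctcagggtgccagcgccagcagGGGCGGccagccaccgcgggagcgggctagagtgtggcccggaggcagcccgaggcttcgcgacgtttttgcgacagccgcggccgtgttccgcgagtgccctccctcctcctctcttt
The PSMD1 promoter, at chr2:231056617-231056866 on the plus strand, belongs to a proteasome subunit and is shown for 3 GC boxes close to the start.
PSMD1: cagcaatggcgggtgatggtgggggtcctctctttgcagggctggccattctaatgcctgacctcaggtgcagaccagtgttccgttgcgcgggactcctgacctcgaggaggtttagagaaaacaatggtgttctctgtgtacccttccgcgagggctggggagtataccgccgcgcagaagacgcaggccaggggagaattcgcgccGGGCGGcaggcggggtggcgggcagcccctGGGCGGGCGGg
HEY2, a Notch-responsive transcriptional repressor, has its promoter at chr6:125749382-125749631 on the plus strand, shown for its paired CCAAT boxes and 3 GC boxes.
HEY2: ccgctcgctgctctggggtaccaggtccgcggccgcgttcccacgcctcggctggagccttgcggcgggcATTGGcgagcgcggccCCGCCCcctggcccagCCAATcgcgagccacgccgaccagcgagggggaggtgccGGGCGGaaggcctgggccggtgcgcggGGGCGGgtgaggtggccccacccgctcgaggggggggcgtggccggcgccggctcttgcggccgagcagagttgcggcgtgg
The promoter of GRIK2, a kainate receptor subunit, lies at chr6:101393458-101393707 on the plus strand and held none of the motifs.
GRIK2: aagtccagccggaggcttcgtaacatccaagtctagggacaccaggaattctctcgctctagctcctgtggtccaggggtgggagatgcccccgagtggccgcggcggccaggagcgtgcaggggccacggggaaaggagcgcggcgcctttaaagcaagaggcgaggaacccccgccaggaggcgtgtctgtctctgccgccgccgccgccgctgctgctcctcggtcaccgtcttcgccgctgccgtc
The promoter of SPATC1L, a relative of a centrosomal protein of sperm, lies at chr21:46184460-46184709 on the minus strand. It held none of the motifs and is shown because it is a tandem repeat: with a shift of 53 bp, 99.5% of the 197 letters that can be compared were the same.
SPATC1L: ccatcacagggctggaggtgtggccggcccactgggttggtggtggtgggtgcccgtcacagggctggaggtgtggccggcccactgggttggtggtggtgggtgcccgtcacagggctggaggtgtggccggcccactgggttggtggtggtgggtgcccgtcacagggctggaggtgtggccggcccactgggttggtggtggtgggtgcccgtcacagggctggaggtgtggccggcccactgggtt
PC, pyruvate carboxylase, has its promoter at chr11:66958384-66958633 on the minus strand and is shown for the MYT1 core, the only letters in capitals here. It was chosen after its values were seen, as the promoter with the core and all 4 summits in the window that had the highest mean fold.
PC: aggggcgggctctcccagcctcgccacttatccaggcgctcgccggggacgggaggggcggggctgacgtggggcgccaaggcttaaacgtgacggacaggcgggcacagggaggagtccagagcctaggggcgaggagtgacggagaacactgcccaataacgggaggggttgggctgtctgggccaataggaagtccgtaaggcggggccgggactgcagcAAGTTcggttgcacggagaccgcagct

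The regions sat at gene starts. RefSeq promoter sequences gave the strand of the gene for 4557 members (82.1%), and for 4481 of these (98.3%) the nearest end was the start of the gene. The other 76 (1.67%) were nearest the 3′ end. Which end was used is no part of the rule. The region covered the gene end itself in 4734 members (85.3%), lay 1 to 250 bp from it in 404, 251 to 500 bp in 196 and 501 to 1000 bp in 215. At the limit, the regions just inside lay 999 bp from KMT2E and 997 bp from both HSPA2 and TRIL. Just outside were regions 1001 bp from EPPK1, 1002 bp from SLC27A1 and 1004 bp from ZNF555.

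The start of the gene was also the usual end in the libraries taken whole, IgG included. Over all peaks whose summit lay within 1000 bp of an end of a single protein-coding gene, members or not, 95.4%, 97.3%, 97.2% and 96.2% were nearest the start in MYT1L replicates 1 to 4. In IgG replicate 1 the share was 90.5% of only 84 such peaks (95% Wilson interval 82.3 to 95.1), and in IgG replicate 2 it was 98.2% of 217. The 2 IgG values lie on either side of all 4 MYT1L values. The MYT1L mean of 96.5% ± 0.906 (SD, n = 4) was 2.20 percentage points above the IgG mean, with a two-sided exact permutation p of 0.667, where the smallest p that 4 libraries against 2 allow is 0.133. Without IgG replicate 1 the difference turned to −1.64 points, without IgG replicate 2 it was 6.04, and with peaks of −log10 q of at least 5 it was 13.6.

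Summits clustered close to the start site. Over the 4323 start members with a promoter sequence, the median summit of the libraries lay within 150 bp of the start in 56.5%, within 500 bp in 91.0%, and downstream of it, inside the gene, in 64.6%. By library, the median position was 75, 55, 14 and 112 bp downstream in replicates 1 to 4, and 63.4%, 59.4%, 52.9% and 71.4% of summits lay downstream. The libraries did not place their summits alike. In bins of 50 bp, replicates 1, 2 and 4 had most summits 100 to 150 bp into the gene, with 11.3%, 10.7% and 16.3% of their summits there. Replicate 3 had most, 10.9%, in the 50 bp before the start. In that bin replicate 4 had a trough of 3.48%, with a smaller second crest of 4.73% between 200 and 150 bp upstream.

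**Figure D1:**
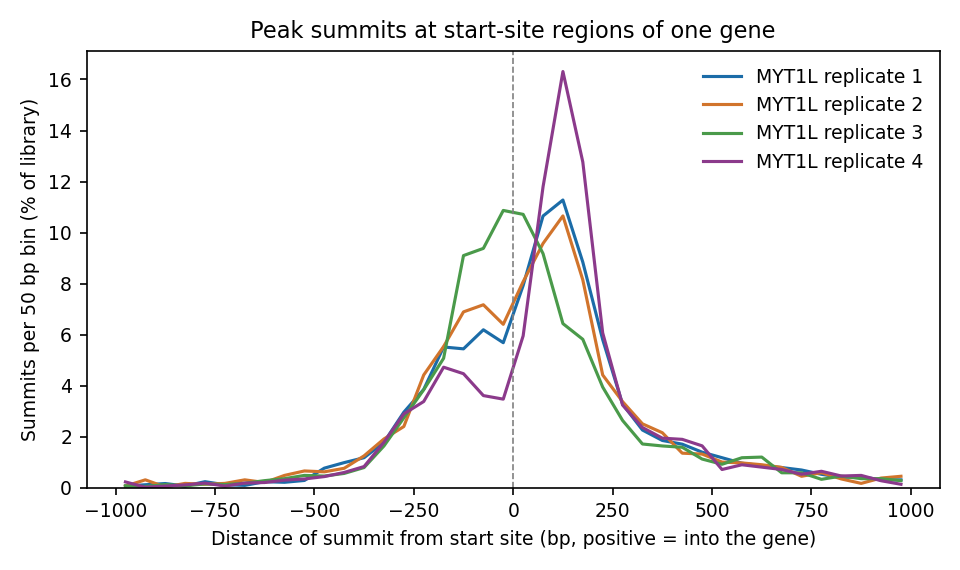
Share of each MYT1L library's summits per 50 bp bin (y axis, percent) against distance from the start site (x axis, bp, positive into the gene), 1 line per library, for start members with a promoter sequence. Replicates 1, 2 and 4 crest 100 to 150 bp into the gene and replicate 3 in the 50 bp before the start, where replicate 4 dips to 3.48%.

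At single regions the summits of the libraries were spread out. In the 2839 members with a peak in all 4 libraries, the distance between the outermost summits had a median of 277 bp. Among the 2270 of these at a start with a promoter sequence, all 4 summits fell within 200 bp of each other in 751 (33.1%) and within 50 bp in 29 (1.28%). The regions themselves were 857 bp wide in the median (quartiles 668 to 1079), against 905 bp for regions at 2 or more genes and 679 bp for kept regions at no gene end. Wider regions give summits more room. The widest covered the start of TLE1, a Groucho-type corepressor, at chr9:81687238-81690065 (2828 bp). CDK13, a kinase of RNA polymerase II, followed with 2653 bp, and DPYSL5, a cytoskeletal protein of growing axons, with 2476 bp.

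Of the members, 2839 (51.2%) had a peak in all 4 libraries, and 2710 had one in 3. That share was 45.4% over all kept regions, 51.2% at regions of 2 or more genes, and 36.4% at no gene end. Support in 3 libraries mostly meant that replicate 2, the shortest MYT1L list with 12310 peaks, had none: it was the missing library in 1912 of the 2710 (70.6%). Replicate 3 was missing in 565, replicate 1 in 219 and replicate 4 in 14. In turn, 5330, 3637, 4984 and 5535 of the members had a peak in replicates 1 to 4. Another 2299 regions at a single gene had peaks in only 2 libraries and no IgG peak. A further 312 with enough MYT1L peaks were set aside for an IgG overlap, and an IgG peak lay within 1000 bp of 4 members.

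Fold over background is a value the authors' peak caller gave each peak. The median over member peaks was 5.64, 5.83 and 5.75 in replicates 1 to 3 and 8.48 in replicate 4. In the caller's formula 1 is added both to the fragments stacked at the summit and to the local background before the fold is taken, which lowers the fold most where the background is low. The fold and the p-value together give back the whole number of fragments, and did so for all member peaks. That number had a median of 16, 9, 14 and 29 over a median local background of 1.83, 0.729, 1.52 and 2.46. A typical member peak in replicate 2 thus rested on 9 fragments, and counting error alone is large at that depth. Replicate 4 had the highest fold in 2451 of the 2839 members with a peak in every library (86.3%), while the lowest fold fell to replicates 1, 2 and 3 in 32.4%, 33.7% and 32.9% of them.

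The order of the libraries depends on that added 1. Taken as plain fragments over background, the median at members was 8.39, 12.8, 8.98 and 11.7 in replicates 1 to 4, so that replicate 2 was above replicate 4. On this scale, chosen after the data were seen, replicate 2 was the highest library in 1528 (53.8%) of the members with a peak in all 4 and replicate 4 in 1108 (39.0%). Each statement below on which library was highest concerns the deposited fold alone. Replicate 2 has the fewest fragments, so its plain ratios are also the least precise.

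The libraries ranked the regions only loosely alike. Over those 2839 members, which share the libraries' depth and local background, Spearman's rho of the fold ran from 0.258 between replicates 2 and 3 to 0.441 between replicates 1 and 4, with a mean of 0.339 over the 6 pairs. Compared with the other kept regions, the log2 difference in median fold was 0.04, 0.03, 0.10 and 0.36 in replicates 1 to 4, a mean of 0.13 ± 0.16 (SD, n = 4), so that the mean is smaller than its spread and rests mainly on replicate 4. With plain ratios it was 0.05, 0.07, 0.10 and 0.23, a mean of 0.11 ± 0.08. Against kept regions at no gene end the fold gave 0.51 in replicate 4 and 0.17 ± 0.23 over the 4 libraries, and plain ratios gave 0.31 and 0.14 ± 0.12. Against regions at 2 or more genes it was −0.02 ± 0.03 on the fold scale and 0.04 ± 0.03 with plain ratios. Replicate 4 had a median fold of 8.48 at members and 5.96 at no gene end, while replicate 1 had 5.64 and 5.49.

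**Figure D2:**
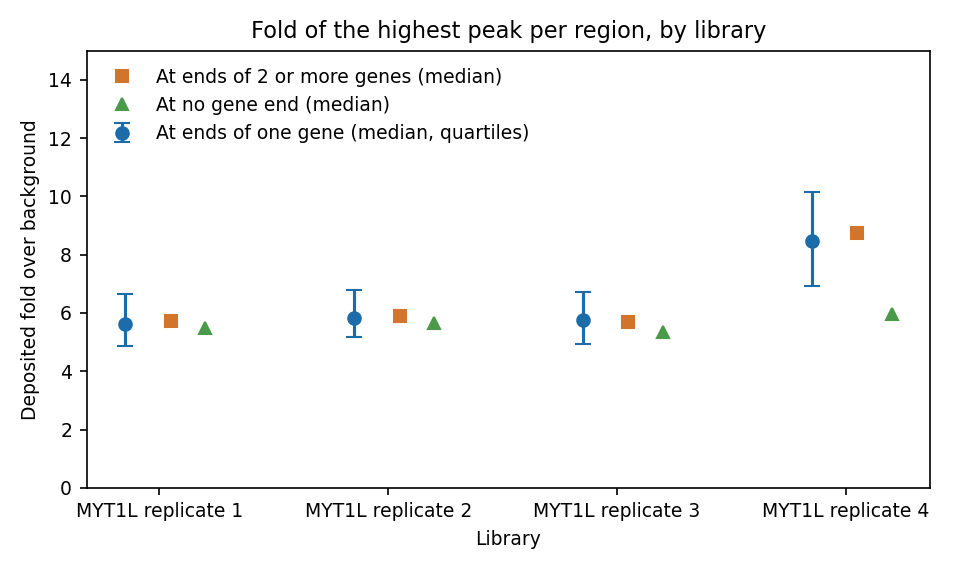
Deposited fold over background of the highest peak per region (y axis) in MYT1L replicates 1 to 4 (x axis), for regions at a single gene, at 2 or more genes and at no gene end, with points at the medians and bars over the quartiles. Replicate 4 is the highest library in all 3 kinds of region, by a wide margin at members (8.48 against 5.83 for the next) and a small one at no gene end (5.96 against 5.66).

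The promoters at the start members were rich in G, C and CpG. The 4308 distinct promoters in this group had a median GC content of 68.0%, against 62.7% over all 15842 promoters in the RefSeq table. The ratio of CG dinucleotides found to those expected from base composition had a median of 0.870 against 0.763, and it was above 0.6, a common mark of a CpG island, in 91.9% against 65.7%. With all promoters sorted by this ratio into 10 groups of equal size, the share with a start member was 1.20% in the lowest group, 24.7% in the fourth and 43.5% in the highest. Between the fifth and the highest group it moved only from 33.8% to 43.5%. Most promoters of the highest group thus had no member. Peak calling and fragment recovery can depend on base composition, and its part in these shares was not tested.

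**Figure D3:**
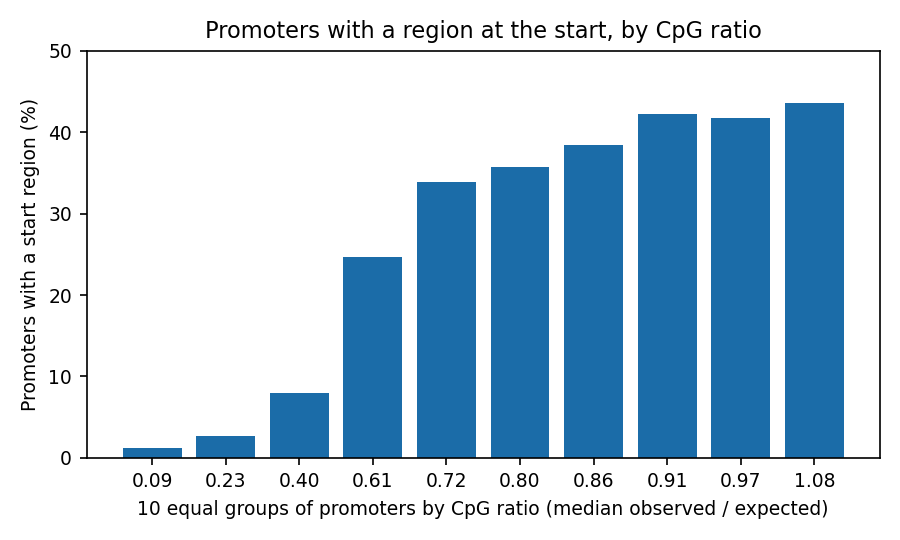
Share of promoters with a member at the start (y axis, percent) in 10 equal groups of all 15842 promoters by CpG ratio (x axis, labelled with the median observed over expected ratio of each group). The share is 1.20% in the lowest group, climbs to 33.8% in the fifth and reaches 43.5% in the highest.

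MYT1L's own core motif, AAGTT, was in a smaller share of these promoter windows than of all. Each motif was searched on both strands of the 300-base window, from 250 bases before to 50 after the start, in the members' promoters and in all of them. That window held only 34.6%, 38.5%, 49.0% and 25.6% of the start summits of replicates 1 to 4, and sequence at the summits outside it was not read here. The core was in 21.8% of members' promoters and in 29.3% of all. GC-rich sequence holds fewer such letters by composition, so the shares were also taken by GC content. Below 50% GC the core was in 56.2% of members' promoters and 58.3% of all, at 50 to 60% in 40.8% and 37.1%, at 60 to 70% in 24.6% and 23.3%, and above 70% in 9.10% and 10.6%. Within each class the shares of members and of all promoters lay within 4 percentage points. Fold differed little with the core: the log2 ratio of median fold with and without it was 0.01 ± 0.01 (SD, n = 4). This ratio was positive in each library, from 0.0009 to 0.0236. Start members with a peak in all 4 libraries were also split by mean fold into 4 groups of 567 promoters each. From the lowest fold to the highest, the core was in 17.8%, 19.4%, 21.2% and 21.9% of them. Median GC content fell over the same groups, from 69.3% to 67.0%, and its part in that rise was not tested. The core was in 20.1% of the 2268 promoters of start members with a peak in all 4 libraries. It was in 15.8% of the 765 promoters of start members with at least 3 summits in the window, a lower share. Median GC content was 68.3% and 70.3% in these groups, and its part in the difference was not tested. With chromosome 8 left out, all 4 summits lay in the window in 181 start members with a peak in every library, and 24 of them held the core. PC was the highest of those, with folds of 8.27, 8.16, 9.02 and 10.3 in replicates 1 to 4 and its core 27 bases before the start. Its summits in replicates 1 to 4 lay at −233, 10, −220 and −196 bp from the start, negative being upstream, and thus not on the core.

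Motifs of general promoter factors were mostly at higher shares. The GC box of SP and KLF factors, GGGCGG, was in 77.3% of members' promoters against 58.5% of all. Below 50% GC these shares were 21.9% and 7.24%, and above 70% they were 93.7% and 94.2%, so the gap was gone in the most GC-rich promoters. The ETS core CCGGAAG was in 18.7% against 14.2%, the YY1 site AAGATGGCG in 4.25% against 2.74%, and the NRF1 site GCGCATGCG in 3.76% against 2.76%. The cyclic AMP response element TGACGTCA was in 3.55% against 2.59%, the palindrome TCGCGAGA in 2.81% against 1.75%, and the E-box CACGTG in 10.8% against 8.88%. By GC content, the ETS core was in 24.8% against 15.5% at 50 to 60% and in 13.8% against 13.9% above 70%. In the same order YY1 had 5.86% against 3.26% and 3.39% against 2.71%. NRF1 had 4.35% against 2.58% and 2.83% against 2.68%. The response element had 3.45% against 2.38% and 3.17% against 2.83%, the palindrome 4.65% against 2.15% and 1.81% against 1.45%. The E-box had 9.61% against 8.47% and 10.9% against 10.6%. Each gap was smaller above 70% GC. ACTACAA, part of the ZNF143 site, was at near the same share, 2.99% against 3.14%. CCAAT, the NF-Y box, was in 37.9% against 36.4% of all. By GC content, its shares were 35.6% against 42.7% below 50% GC, then 48.6% against 42.9%, 43.0% against 36.9%, and 29.0% against 25.7% above 70%. The TATA box TATAAA was in 4.34% against 9.63%, and within the same classes in 29.5% against 30.7%, 7.96% against 9.34%, 3.18% against 4.44% and 2.03% against 2.22%, so that the gap within a class was under 2 percentage points. A match is a run of letters and was not shown to be bound. None of these motifs contains another as spelled.

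Such a region lay at 5503 of 20037 protein-coding genes (27.5%). Of these, 44 genes had 2 or more members. A kept region shared with a neighbour lay at 2349 genes, some of which also had a member, and 7796 (38.9%) had either kind. Genes with a member were longer, with a median of 43729 bp against 24115 bp over all genes. The share with a member was 14.2% of genes up to 10 kb, 24.4% from 10 to 30 kb, 35% from 30 to 100 kb, 42.1% from 100 to 300 kb and 45.4% of those over 300 kb. By chromosome it was highest on chromosome 18 (41.1%) and 13 (36.1%) and lowest on 19 (18.7%), X (11%) and Y (7.94%). With regions shared between genes added, the shares on 19, X and Y were 28.0%, 14.98% and 7.94%, again the lowest, against 38.9% over all genes.

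Gene groups stood on both sides of that 27.5%, and each count below is read against it with no test of the group. Housekeeping machinery was mostly above it. Most promoters of these genes had a CpG ratio above 0.6, and of all such promoters 38.0% had a start member. Aminoacyl-tRNA synthetases had a region in 17 of 34 genes, proteasome genes in 22 of 48 (45.8%), translation factors in 32 of 70 (45.7%), nuclear pore genes in 15 of 33 (45.5%), spliceosome genes in 37 of 88 (42.0%) and ubiquitin-conjugation genes in 78 of 190 (41.1%). RNA polymerase II machinery had 37 of 95 (38.9%). Cell-cycle genes with 27 of 73 (37.0%), ribosomal protein genes with 29 of 86 (33.7%), and DNA replication (14 of 42) and repair genes (24 of 72, 33.3% each) were closer to the share of all genes, with 95% Wilson intervals that include it. Respiratory chain genes, with 23 of 96, also had an interval that includes it. Mitochondrial ribosomal protein genes had 14 of 77 (18.2%, interval 11.2 to 28.2). However, 22 of the 77 lay at a region shared with another gene, and together 36 (46.8%) had either kind. Above a CpG ratio of 0.6, start-member shares stood on both sides of 38.0%, with no test. Promoters of tRNA synthetase (57.7%), proteasome (54.3%), ubiquitin-conjugation (48.2%), spliceosome (47.8%), nuclear pore and translation factor genes (42.3%) were above it. RNA polymerase II (37.0%), cell-cycle (34.5%), repair (33.9%), replication (33.3%), respiratory chain (28.6%), ribosomal (26.9%) and mitochondrial ribosomal protein promoters (20.9%) were below it.

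PSMD1 and PSMD7 encode subunits of the proteasome's regulatory cap. At the PSMD1 start, the promoter printed above, the folds were 4.89, 8.10, 7.31 and 11.6 in replicates 1 to 4, and at PSMD7 they were 6.12, 5.80, 8.04 and 12.9. CDK8 had 8.13, 7.29, 9.55 and 12.2, on 20, 11, 22 and 48 fragments at the summits. GTF2A1, the large subunit of the general factor TFIIA, had 9.13, 8.05, 7.77 and 11.5. In each of these 4 genes replicate 4 was highest, and the order of the other libraries was not the same at all 4. RPLP1, a protein of the ribosomal stalk, had the widest spread among the ribosomal genes named by the rule, 9.39, 6.95, 4.08 and 16.4. NDUFV2, a subunit of respiratory complex I, had a mean fold of 10.4 ± 3.6, and RANBP2, a nucleoporin of the cytoplasmic face, 8.61 ± 2.3 (SD, n = 4 libraries).

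Chromatin regulators were among the groups with the most regions, 62 of 126 genes (49.2%, 95% Wilson interval 40.6 to 57.8). INO80, the ATPase of a nucleosome remodeller, had folds of 9.45, 8.64, 5.48 and 13.4 at chr15:41115687-41116570, over its start. DNMT1, the maintenance DNA methyltransferase, had 7.88, 4.91, 6.28 and 13.9, and KDM8 had 7.70, 11.3, 4.48 and 11.3. Genes of the SIN3 and NCOR corepressor complexes, MYT1L's known partners, had a region in 12 of 30 (40.0%, interval 24.6 to 57.7), which includes the share of all genes. BRMS1L, a SIN3 subunit, was the highest of them at 8.91 ± 3.0, followed by ING2, which reads methylated histone H3, at 7.38 ± 1.4. HDAC2, a catalytic subunit, had 7.25 ± 1.7 (n = 4 libraries each). Zinc-finger genes named ZNF had 204 of 510 (40.0%, interval 35.8 to 44.3). Their highest were ZNF33A and ZNF33B, close paralogues on chromosome 10 that could share reads, with mean folds of 11.2 ± 4.0 and 10.8 ± 4.5.

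**Figure D4:**
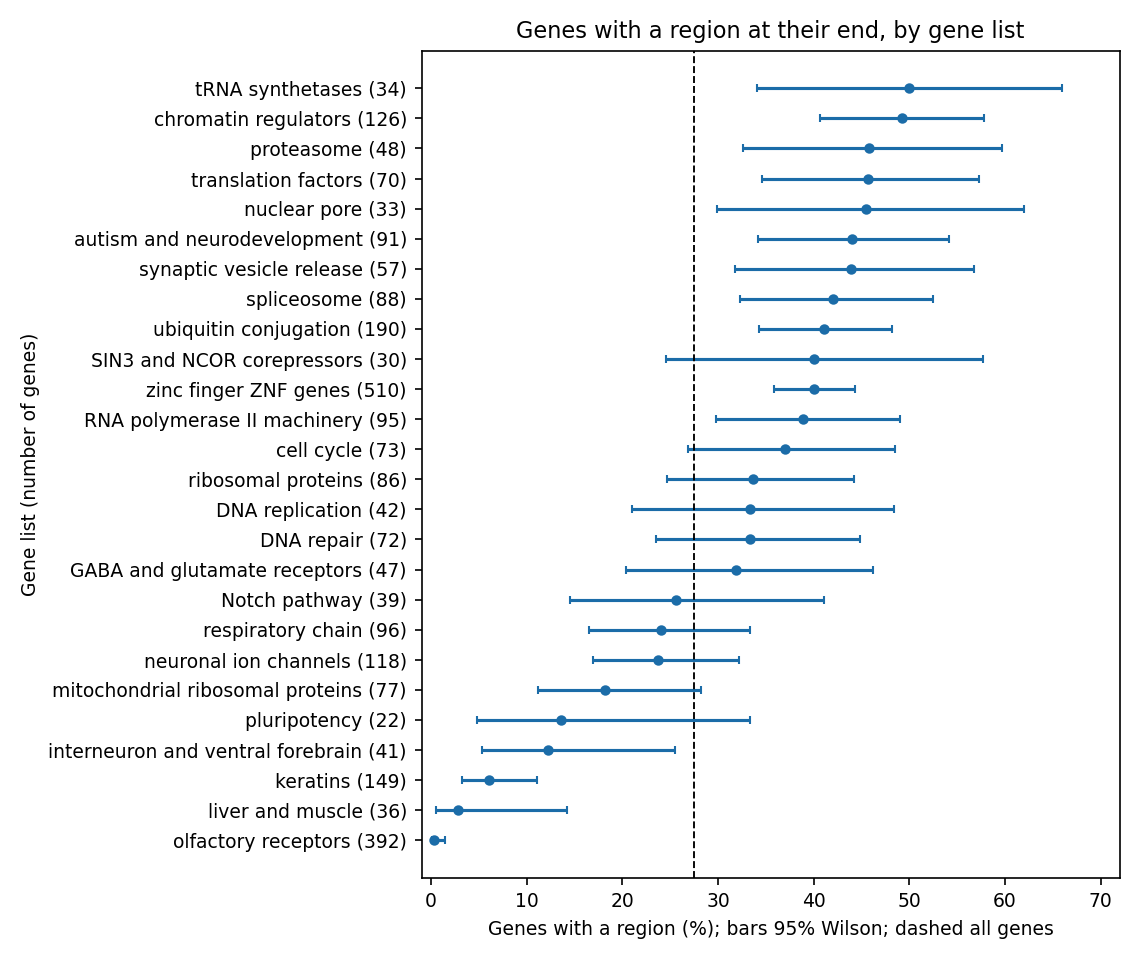
Share of genes with a member (x axis, percent) in each of 26 gene lists (y axis, number of genes in parentheses), with points at the share, bars over the 95% Wilson interval and a dashed line at the 27.5% of all protein-coding genes. Lists run from 17 of 34 genes for tRNA synthetases to 0.255% for olfactory receptors.

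Genes of neuronal function were split. Synaptic vesicle release genes had a region in 25 of 57 (43.9%) and genes linked to autism and neurodevelopmental disorders in 40 of 91 (44.0%), both with Wilson intervals above the share of all genes. GABA and glutamate receptor genes had 15 of 47 (31.9%) and neuronal ion channels 28 of 118 (23.7%), both with intervals that include it. With regions shared between genes added, receptors had 31.9% and ion channels 28.0%, against 38.9% of all genes. Synaptic vesicle and autism-linked genes then had 52.6% and 51.6%. The genes linked to autism are long, 155660 bp in the median, and longer genes more often had a region in this data set. Above a CpG ratio of 0.6, a start member lay at 48.8% of synaptic vesicle and 47.1% of autism-linked promoters. It lay at 44.4% of receptor and 32.6% of ion channel promoters, against 38.0% of all promoters above that ratio, with no test. PCLO, a scaffold of the presynaptic active zone, had folds of 8.54, 5.63, 8.29 and 10.8. SYNJ1, a phosphatase of vesicle recycling, had 7.10, 7.36, 6.99 and 10.1, and CTNNB1, β-catenin, 7.19, 6.14, 7.28 and 10.8. On the deposited fold replicates 1 to 3 agreed closely at SYNJ1, and replicate 4 was above them at all 3 genes. With plain ratios SYNJ1 had 10.4, 15.6, 10.5 and 13.1, so that replicate 2 was highest there. SCN8A, a voltage-gated sodium channel, had 6.87 ± 2.2 (n = 4 libraries).

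At GRIK2, whose printed promoter held no searched motif, the folds were 6.04, 4.89, 6.34 and 8.35. GRIA4, an AMPA receptor subunit, had 6.41, 5.45, 7.31 and 10.6, with the region 85 bp from its start. The order of libraries was the same at both receptor genes, with replicate 4 highest and replicate 2 lowest.

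Markers of interneurons and their ventral forebrain progenitors were low in number, 5 of 41 genes (12.2%, interval 5.32 to 25.5), and only RELN had a peak in all 4 libraries. RELN, the secreted protein of some cortical interneurons, had folds of 5.04, 5.98, 5.49 and 6.88 on 10, 8, 12 and 14 fragments, with summits spread over 670 bp. MAF, PROX1 and DLX2, transcription factors of the lineage, had mean folds of 5.78 ± 2.1, 5.64 ± 1.0 and 4.63 ± 1.2 (n = 3 libraries each). MAF and PROX1 had no peak in replicate 2, and DLX2 none in replicate 3. Of their 29 promoters with a sequence, 26 had a CpG ratio above 0.6. Of those 26, 3 (11.5%) had a start member, against 38.0% of all promoters above that ratio, and the difference was not tested.

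Pluripotency genes had a region in 3 of 22 (13.6%, interval 4.75 to 33.3), each in 3 libraries. SOX2, which neural progenitors also make, had folds of 5.50, 7.96 and 5.54 in replicates 1, 2 and 4. DNMT3B, a de novo DNA methyltransferase, had 5.41 ± 1.3, and KLF4, a reprogramming factor, 4.58 ± 0.60 at 853 bp from the gene end. Genes of lineages far from neurons were nearly absent. Liver and muscle genes had 1 of 36 (APOA1), olfactory receptors 1 of 392 (OR10H2) and keratins with their associated proteins 9 of 149 (6.04%). Of the olfactory receptor promoters with a sequence, 7 of 314 had a CpG ratio above 0.6, and 1 of 114 keratin promoters did.

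The Notch pathway had a region in 10 of 39 genes (25.6%, interval 14.6 to 41.1), close to the share of all genes, and 9 of the 10 were in all 4 libraries. They spanned the pathway. Among receptors, NOTCH2 had folds of 7.38, 8.23, 7.0 and 10.8. NOTCH2NLA, described below, is a partial copy of NOTCH2, and whether reads were shared between these genes was not tested. The pathway's proteases were represented by ADAM10, with 8.78, 7.09, 7.43 and 9.70. ADAM17 and the γ-secretase subunit PSEN2 had mean folds of 6.63 ± 2.3 and 6.81 ± 2.3. Of the ligands, DLL3 had 5.90 ± 1.1 (n = 4 libraries for each of these means). Of 27 Notch pathway promoters with a CpG ratio above 0.6, 7 (25.9%) had a start member. The share over all promoters above that ratio was 38.0%, and the difference was not tested.

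Among the pathway's effectors, HEY2 had folds of 5.24, 5.12, 11.02 and 6.77, on 13, 7, 23 and 18 fragments at the summits. At HEY2 replicate 3, not replicate 4, was highest, and its 4 summits lay within 76 bp on the promoter printed above. HEY1, its paralogue, had 5.97 ± 1.2 (n = 4). HES1, the best-known Notch target, had folds of 4.58, 4.61 and 3.87 in replicates 2, 3 and 4 and no peak in replicate 1. NUMB, an inhibitor of the receptor, had 5.68, 4.62, 4.86 and 12.2.

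The highest regions belonged to a mixed set of genes. USP16, a deubiquitinase of histone H2A, led with folds of 15.5, 11.4, 9.17 and 17.8 (mean 13.5 ± 3.9, n = 4) at chr21:29024543-29025125, over its start. Its summits held 44, 19, 23 and 59 fragments and lay within 89 bp of each other. NOTCH2NLA, a partial copy of NOTCH2 found in humans and active in cortical progenitors, had 10.96, 11.01, 11.19 and 17.58, and the near-identical copies of that family on chromosome 1 can exchange reads, so this value may not belong to NOTCH2NLA alone. RBIS, a ribosome biogenesis factor, had a mean fold of 12.5 ± 3.9.

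SPATC1L, whose promoter is the tandem repeat, had folds of 12.1, 11.7, 10.3 and 15.7 on 75, 39, 47 and 102 fragments. Its mean −log10 q, 50.1, was the highest of all members with a peak in every library, and its summits lay within 45 bp. The number of repeat copies in H1 is not known here and its part in the fold was not tested. The next were CCDC90B, a mitochondrial membrane protein, at 12.4 ± 4.3, CEP126, a protein of the centrosome, at 12.1 ± 3.4, and LAP3, a leucine aminopeptidase, at 11.9 ± 3.7. COX18, an assembly factor of cytochrome c oxidase, had 11.9 ± 3.6, DTWD2, a tRNA-modifying enzyme, 11.4 ± 4.0, and SNX3, a sorting nexin of endosomes, 11.3 ± 3.5 (n = 4 libraries for each). In each of these 10 genes replicate 4 had the highest fold, while with plain ratios it was highest at 3 of them.

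**Figure D5:**
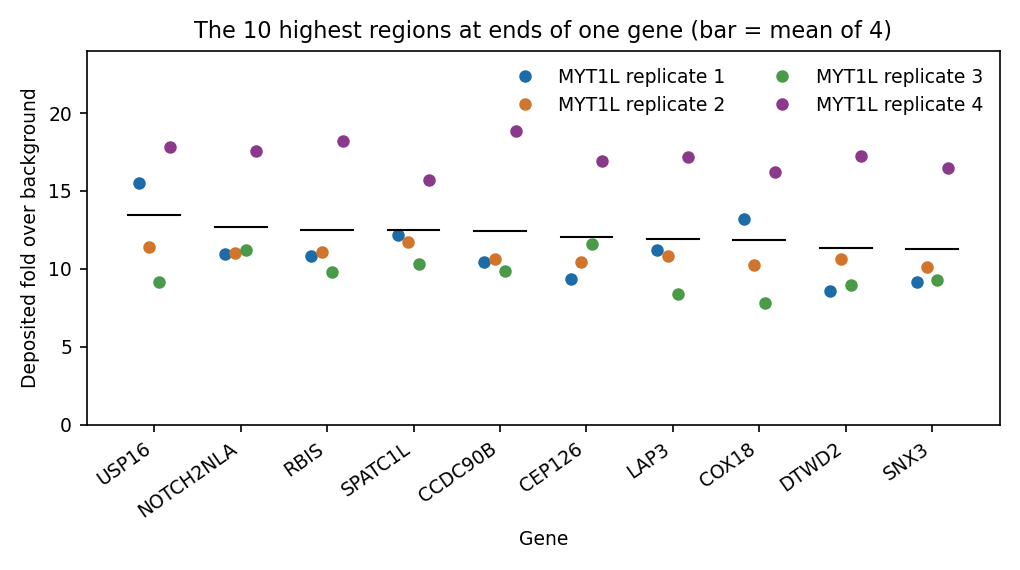
Deposited fold over background (y axis) of the 10 members with the highest mean fold (x axis, gene), 1 point per MYT1L library and a bar at the mean of 4. On this scale replicate 4 is the highest point at every gene, and USP16 has the highest mean, 13.5.

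The rare 3′-end members formed a different group. Of the 76, 32 had a peak in all 4 libraries, 10 covered the 3′ end, 9 also lay within 1000 bp of the gene's own start, and 13 lay within 1000 bp of an end of a long noncoding RNA gene. Over all members that last number was 1487 of 5549 (26.8%). Their genes were shorter, 12741 bp in the median, and 21 were under 3000 bp. Their median fold was 4.99, 5.54, 5.10 and 5.82 in replicates 1 to 4, against 5.68, 5.85, 5.79 and 8.60 at starts. Plain ratios at 3′ ends were 6.61, 10.9, 7.45 and 8.56, against 8.44, 12.9, 9.05 and 11.8 at starts, lower at 3′ ends in each library. VCX2, a testis gene of a multi-copy family on X, had the highest mean fold, with 9.23, 9.62 and 8.26 in replicates 1, 2 and 4. KRT10, a skin keratin, had 8.41 ± 3.6 and LORICRIN, a protein of the cornified skin layer, 7.44 ± 0.59 (n = 3 libraries each). CARD8, an inflammasome sensor, had 7.93 ± 1.9, and KCNT2, a sodium-activated potassium channel, 8.24, 7.74, 6.34 and 6.86 at 452 bp from its 3′ end.

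A pair of uncharacterised loci had 3 members each. LOC124900996 on chromosome 5 had mean folds of 4.11, 4.22 and 6.02, the last at its 3′ end, and LOC124904970 on chromosome 20 had 3.47, 5.39 and 4.74.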

How the data were processed

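Peak lists of 6 CUT&RUN libraries (4 MYT1L, 2 IgG) were used. MACS2 and build hg38 are named in the submitters' processing notes; the aligner, the threshold and the control library are not given in the sources used here. Each deposited peak has a summit, a score, a fold (the ratio of fragments plus 1 to local background plus 1) and the −log10 of its p-value and of its q-value, all as the authors' peak caller wrote them. The lowest −log10 q was 2.00. Replicate numbers follow the sample titles, although peak names within the MYT1L lists use numbers 1 higher.

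Regions were merged in Python 3.11.15 (pandas 2.3.3, scipy 1.17.1) on chromosomes 1 to 22, X and Y. An independent merge with bedtools 2.31.1 gave 0 regions that differed, and on simulated data 55 of 55 planted regions were found. A region took the fold of its highest peak in each library. Gene ends came from the RefSeq table of GRCh38.p14 (20037 protein-coding genes). Strand and sequence came from RefSeq promoters, matched by gene identifier and chromosome for 15842 of these genes. Fragments at a summit were solved from fold and p-value (tolerance 0.0005 on the −log10 p); on simulated data 1000 of 1000 were recovered. Read depth is not known, and the intervals (95% Wilson) cover counting error only.

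The members and gene lists were chosen with earlier results of these data known. Named genes were the 10 highest members in 4 libraries, up to 4 per list by mean fold, the 3 nearest either side of the distance limit, the 3 widest, genes with 3 or more members and the 5 highest at a 3′ end. The Notch genes named beyond the first 4 and PC were named after their values were seen. Some list genes are not reported here by name. Alternatives changed peak strength, peak number, libraries needed, joining overlap, IgG overlap, distance, the libraries used and, added after the data were seen, the fold without the added 1.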

Additional observations from a re-analysis of the deposited data

Results flagged for a closer look

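On the deposited fold scale MYT1L replicate 4 stood far from the other 3 libraries in 7 of 20 measures, by Dixon's criterion for 4 values, which chance passes in about 1 in 20 groups. Its median fold was 8.48 over all member peaks, 8.60 at gene starts, 9.17 in members with a peak in all 4 libraries, 7.76 in those with a peak in 3, and 8.74 at regions of 2 or more genes. Its median −log10 q was 18.3. Its log2 ratio of median fold between members and kept regions at no gene end was 0.51. Most of these 7 measures come from the same member peaks. They are therefore not separate groups, and their number cannot be set against the rate of 1 in 20. The fold includes the peak caller's added 1. With plain fragments over background none of the 6 fold measures passed the criterion: the median at members was 11.7 in replicate 4 and 12.8 in replicate 2, and the log2 ratio against no gene end was 0.31.

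Among the named regions, the same library stood apart at 4 of the 10 highest, with folds of 17.6 at NOTCH2NLA, 18.2 at RBIS, 18.9 at CCDC90B and 16.5 at SNX3. In the Notch pathway and synaptic vesicle lists it did so with 12.2 at NUMB, 10.1 at both ADAM17 and SYNJ1, and 12.2 at CLTC, the clathrin heavy chain. The others were SRSF8 (14.5), a splicing factor, FBXO25 (13.1), a ubiquitin ligase subunit, PSMD14 (13.0), a proteasome deubiquitinase, GTF2IRD2B (11.5), which has close copies nearby, COX5B (11.2), a subunit of cytochrome c oxidase, and NUP54 (10.5), a nucleoporin. Of 112 named members with a peak in all 4 libraries 14 passed the criterion, and in all 14 the library was replicate 4. Most of the 112 were named for a high mean fold, and the share that passes over all 2839 such members was not taken. Over those 2839, replicate 4 had the highest fold in 86.3%. With plain ratios, 5 of 107 such members named by the rule passed, 1 of them (DNMT1) with replicate 4 highest. The standing of replicate 4 thus depends on the scale.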

How the results depend on the processing

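The number of regions was 5549. It was 3405 with peaks of −log10 q of at least 5 and 2839 with a peak asked for in all 4 libraries. Leaving out 1 library, with 2 of the other 3 MYT1L libraries asked for, gave 5617 to 7560. The other alternatives stayed within 1.5 times. The share of member peaks at the gene start, 98.39% per library, was 98.74% with −log10 q of at least 5, 98.96% with equal numbers of top peaks, 97.52% with 2 libraries and 98.65% with 4 libraries asked for, 98.29% with IgG-overlapping regions kept, 98.89% within 500 bp, 97.23% within 2000 bp, and 97.52% to 98.46% with 1 library left out. The log2 fold difference from other kept regions, 0.13, kept its sign in all 15 alternatives and was 0.11 with plain fragments over background, 0.03 with equal numbers of top peaks, 0.07 with −log10 q of at least 5, 0.08 without replicate 4 and 0.21 without replicate 2. The MYT1L minus IgG difference in start share ran from −1.64 (without IgG replicate 1) to 6.04 points (without IgG replicate 2) with 1 library left out and was 13.6 with −log10 q of at least 5, so its direction rests on a library with 84 such peaks. No paired analysis was possible because nothing in the labels ties a MYT1L library to the IgG library of the same number, and all but this comparison come from no test.

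Of the 26 gene lists, 24 stayed on the same side of the share of all genes with 4 libraries asked for (14.1%), 25 with 2 (38.1%) and 23 with −log10 q of at least 5 (16.9%). Those that crossed were ribosomal proteins and Notch (4 libraries, and −log10 q), SIN3 and NCOR (−log10 q) and ion channels (2 libraries). Ranking by mean −log10 q kept 6 of the 10 highest regions. The ZNF143 letters were added to the motifs after the sequences were seen.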

Other observations

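Ranking by mean −log10 q brought in FARP2, TIAM1, ATP1B1 and DUX4. DUX4 lies in a macrosatellite repeat near the end of chromosome 4, and it joined a mean −log10 q of 27.5 to a mean fold of only 2.97, the lowest of the 4481 start members.

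Motif letters and fold were set side by side for each of the 11 motifs. The log2 ratio of median fold with and without the palindrome TCGCGAGA was 0.08 ± 0.03 (SD over 4 libraries), with the same sign in all 4, and for TGACGTCA it was 0.05 ± 0.03. For the GC box it was −0.01 ± 0.02. Promoters with at least 3 summits in the 300-base window held AAGTT in 15.8% and GGGCGG in 85.5%. Those shares were 21.8% and 77.3% over all start members' promoters, and 29.3% and 58.5% over all promoters. Median GC content was 70.3%, 68.0% and 62.7% in these groups, and its part in the shares was not tested.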
